A study of Homo sapiens with 8 samples.

Results

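Among 223459 merged loci of H1 DNA that were captured with at least 1 of 3 RNA oligos, 11972 (5.36%) were captured with both MEG3 TFR2 and GATA6-AS TFR1 and not with MEG3 TFR1. These shared loci were found by joining the 3 lists of captured regions, merging regions that overlap by 1 bp or more, and keeping each merged locus with a region of MEG3 TFR2, a region of GATA6-AS TFR1 and none of MEG3 TFR1. Not captured here means that the list holds no region there, which is not a measure of no capture. They covered 7.86 of the 100.6 Mb in all merged loci. The loci were thus selected by presence in the captured lists, which hold only positive log2 ratios of oligo over no oligo from the authors. Their number and their ratios are therefore given as a description. How a region entered a list is not given. The lists hold 1 value per region, made by the authors from 4 libraries, and no value per library. No difference between classes of loci could therefore be tested against the spread of libraries, and the 95% Wilson intervals below cover counting error only, with neighbouring loci not independent of each other.

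The DNA came from H1, a human embryonic stem cell line, and was freed of RNA and sonicated to 200 to 300 bp. In each of 4 groups, MEG3 TFR2, GATA6-AS TFR1, MEG3 TFR1 and no oligo, 6 to 7 µg of this DNA met 20 pmol of the biotinylated RNA oligo, or none, in a buffer with 50 mM KCl and 5 mM MgCl2 that was held at 37 °C for 1 h. DNA that stayed with the RNA was taken up on streptavidin beads, released with RNases and sequenced, with 2 libraries a group from independent experiments, 8 in all. The assay reads purified DNA of a single line with short oligos, so it says nothing of chromatin or of the full-length RNAs, and with no expression measured the line could not be checked against its markers.

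An RNA can lie in the major groove of a DNA duplex and pair with the purines of 1 strand, which makes a triplex. Such contacts need a stretch of DNA with purines (A and G) on the same strand, and a run of G and A on either strand is the usual sign of a place that could hold one. MEG3 is a maternally expressed long noncoding RNA of the imprinted DLK1-DIO3 domain, reported to bind Polycomb repressive complex 2 and to act on genes of the TGF-beta pathway. GATA6-AS is transcribed from the strand opposite GATA6, which encodes a transcription factor of endoderm and heart. The oligos carry parts of these RNAs named TFR in the labels, read here as triplex-forming regions. Their sequences are not printed, and the DNA letters of a locus were read only where a RefSeq promoter lies under it.

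Sequences at the shared loci are shown first for 3 promoters in which a long purine run lies wholly under a locus captured at least 3-fold with both oligos. Each is the stretch of 300 bases from 250 before to 50 after a RefSeq start (GRCh38.p14), 5′ to 3′ along the gene, with the longest run of purines on either strand in capitals.

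CACNA1E: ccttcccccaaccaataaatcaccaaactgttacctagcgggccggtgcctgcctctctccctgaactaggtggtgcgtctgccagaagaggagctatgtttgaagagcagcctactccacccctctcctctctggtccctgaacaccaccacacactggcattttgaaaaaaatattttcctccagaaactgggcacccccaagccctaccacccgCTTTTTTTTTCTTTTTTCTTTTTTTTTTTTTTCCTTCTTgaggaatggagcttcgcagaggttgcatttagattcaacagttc
DHH-AS1: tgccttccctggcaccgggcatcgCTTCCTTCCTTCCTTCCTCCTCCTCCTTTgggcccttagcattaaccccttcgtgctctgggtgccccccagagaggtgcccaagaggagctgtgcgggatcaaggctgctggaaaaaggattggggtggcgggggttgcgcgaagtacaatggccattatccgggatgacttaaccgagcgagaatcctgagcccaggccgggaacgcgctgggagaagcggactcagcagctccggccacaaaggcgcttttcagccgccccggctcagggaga
SEPTIN4: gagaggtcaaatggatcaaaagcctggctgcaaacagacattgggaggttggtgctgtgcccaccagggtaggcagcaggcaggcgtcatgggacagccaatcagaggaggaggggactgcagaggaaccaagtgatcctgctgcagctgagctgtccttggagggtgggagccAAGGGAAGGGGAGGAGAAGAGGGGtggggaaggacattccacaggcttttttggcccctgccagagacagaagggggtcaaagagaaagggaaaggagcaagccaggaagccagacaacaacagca

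The promoter of CACNA1E, which encodes the pore of a voltage-gated calcium channel, lies at chr1:181483267-181483566 on the + strand. Its run of 39 bases is purine on the strand opposite to the one printed and reaches from 33 bases before the start to 5 bases after it. The locus there, chr1:181483051-181483550, was 3.05-fold over no oligo with MEG3 TFR2 and 3.20-fold with GATA6-AS TFR1. DHH-AS1, a long noncoding RNA antisense to the hedgehog ligand gene DHH, has its promoter at chr12:49091830-49092129 on the + strand with a run of 29 bases, again purine on the other strand. Its locus, chr12:49091801-49092300, was at 3.69-fold with MEG3 TFR2 and 3.73-fold with GATA6-AS TFR1. SEPTIN4 encodes a filament-forming GTPase, and its promoter at chr17:58529267-58529566 on the - strand holds a run of 24 purines on the printed strand. The locus over that run, chr17:58528801-58529450, reached 7.73-fold with MEG3 TFR2 and 5.55-fold with GATA6-AS TFR1.

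A different set shows the 8-letter motif GGAGGAGG, which was found in a larger share of promoters under shared loci than of all promoters (values below). The capitals mark the motif in the 3 promoters, DHH-AS1 aside, that lie wholly inside a shared locus, hold it and have the highest lower ratio of the 2 oligos; they were picked after their values were seen.

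HOMER3-AS1: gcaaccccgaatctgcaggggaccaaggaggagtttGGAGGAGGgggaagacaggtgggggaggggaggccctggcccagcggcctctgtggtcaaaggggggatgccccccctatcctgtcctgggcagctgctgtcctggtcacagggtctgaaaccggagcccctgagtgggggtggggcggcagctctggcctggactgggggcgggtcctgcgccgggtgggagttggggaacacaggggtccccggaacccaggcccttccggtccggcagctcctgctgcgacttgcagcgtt
ATP8B2: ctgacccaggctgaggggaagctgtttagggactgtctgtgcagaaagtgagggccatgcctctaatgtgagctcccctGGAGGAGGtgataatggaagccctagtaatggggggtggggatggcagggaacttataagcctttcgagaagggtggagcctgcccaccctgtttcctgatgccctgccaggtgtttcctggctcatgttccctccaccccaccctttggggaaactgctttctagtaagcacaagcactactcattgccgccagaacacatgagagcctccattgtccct
CALM3: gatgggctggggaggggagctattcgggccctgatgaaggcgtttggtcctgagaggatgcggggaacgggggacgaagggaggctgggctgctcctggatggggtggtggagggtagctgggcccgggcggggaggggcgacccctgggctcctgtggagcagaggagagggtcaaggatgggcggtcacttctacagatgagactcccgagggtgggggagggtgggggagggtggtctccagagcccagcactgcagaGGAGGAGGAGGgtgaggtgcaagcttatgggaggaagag

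HOMER3-AS1 is a noncoding RNA transcribed opposite to HOMER3, and its promoter is at chr19:18940004-18940303 on the + strand, under the locus chr19:18939451-18940950 at 8-fold with MEG3 TFR2 and 9.29-fold with GATA6-AS TFR1. ATP8B2, a phospholipid-transporting ATPase, has its promoter at chr1:154327497-154327796 on the + strand, under the locus chr1:154326851-154328550 at 7.02-fold and 3.91-fold in the same order of oligos. CALM3 encodes calmodulin, and its promoter at chr19:46601819-46602118 on the + strand was under the locus chr19:46601501-46603000 at 4.29-fold with MEG3 TFR2 and 3.68-fold with GATA6-AS TFR1. The HOMER3 promoter itself, on the other strand of the same locus as HOMER3-AS1, is shown as the contrast, since its longest purine run has only 9 bases (capitals) and it holds no GGAGGAGG.

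HOMER3: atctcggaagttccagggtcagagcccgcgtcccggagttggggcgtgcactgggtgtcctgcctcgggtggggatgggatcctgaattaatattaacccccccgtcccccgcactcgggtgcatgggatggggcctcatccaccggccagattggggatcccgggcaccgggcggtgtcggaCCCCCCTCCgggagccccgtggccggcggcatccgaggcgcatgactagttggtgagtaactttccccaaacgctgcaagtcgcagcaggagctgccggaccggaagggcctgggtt

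The HOMER3 promoter lies at chr19:18940256-18940555 on the - strand. A high ratio thus also stood over a promoter stretch without a long run, and where in a locus of 1500 bp the captured fragments were centred cannot be read from the lists. Of the 6 promoters with the longest runs under loci at 3-fold or more with both oligos, PBX2 (39 bases) and FCER2 (29 bases) had the run outside the locus, and the locus over LOC124904482 covered 8 of 23 run bases.

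Most shared loci were simple pairs of regions. In 11550 of them (96.5%) there was 1 region of each oligo, 297 (2.48%) held 2 or more MEG3 TFR2 regions and 142 (1.19%) held 2 or more of GATA6-AS TFR1, with at most 3 of either. They took up 12275 of the 73546 regions captured with MEG3 TFR2 (16.7%) and 12115 of the 104786 captured with GATA6-AS TFR1 (11.6%). Within the simple pairs the regions lay almost on top of each other: the median overlap was 300 bp (range 50 to 1650), and the median share of the shorter region that was covered was 100%. The MEG3 TFR2 region, 350 bp wide in the median, lay wholly inside the GATA6-AS TFR1 region, 450 bp in the median, in 5103 pairs (44.2%). The reverse held in 1208 (10.5%), and 446 (3.86%) had the same start and end. Midpoints were a median of 100 bp apart, with a 90th percentile of 300 bp, which is about the length of the sonicated fragments.

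The rule turned on small distances for few loci. An overlap of exactly 50 bp, the step on which all regions lie, was seen in 381 pairs (3.30%), with median ratios of 3.05-fold with MEG3 TFR2 and 2.67-fold with GATA6-AS TFR1. Pairs with a longer overlap had medians of 2.78-fold and 2.5-fold. Just outside the rule were 209 pairs of regions that touch without sharing a base, with medians of 2.96-fold and 2.62-fold. On the other side of the rule, a captured MEG3 TFR1 region touched 167 shared loci (1.39%), lay within 200 bp of 824 (6.88%) and within 1000 bp of 2923 (24.4%). The median distance to the nearest MEG3 TFR1 region was 3100 bp, so "without MEG3 TFR1" is a statement about the locus and not about its neighbourhood. The captured list of MEG3 TFR1 holds no value at the shared loci, and the cut for entering it is not given. Weaker capture with MEG3 TFR1 at these loci thus cannot be told from none.

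Shared loci, which hold at least 2 regions by the rule, were wider than loci of either oligo alone. Their median width was 550 bp (10th to 90th percentile 350 to 1100, range 150 to 4350), against 300 bp for MEG3 TFR2 alone and 350 bp for GATA6-AS TFR1 alone. Loci of MEG3 TFR1 with GATA6-AS TFR1 had a median of 700 bp, loci of both MEG3 oligos 600 bp and loci of all 3 oligos 950 bp.

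The size of the ratios, a measure that presence in the lists partly fixes, was close to that of loci with a single oligo. With MEG3 TFR2 the median log2 ratio was 1.49 (2.80-fold) in shared loci, against 1.43 (2.70-fold) in loci of MEG3 TFR2 alone, and with GATA6-AS TFR1 it was 1.33 (2.51-fold), against 1.35 (2.54-fold) in loci of GATA6-AS TFR1 alone. Where a locus held several regions of an oligo, the highest ratio was taken, which can raise the value of wide loci. Across the 22 autosomes the MEG3 TFR2 median of shared loci lay above that of MEG3 TFR2 alone on 21, and the GATA6-AS TFR1 median lay below that of GATA6-AS TFR1 alone on 17. The differences were small beside the range within the shared loci, which ran from 1.39-fold to 42.5-fold with MEG3 TFR2 and from 1.39-fold to 21.8-fold with GATA6-AS TFR1.

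**Figure D1:**
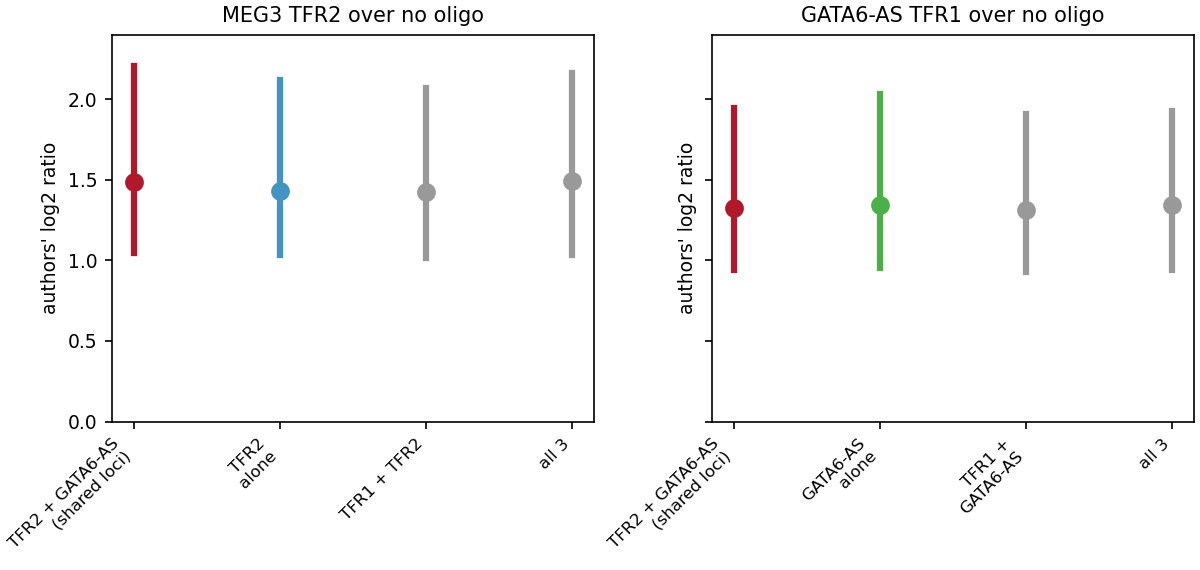
Authors' log2 ratio of oligo over no oligo in each class of merged loci, for MEG3 TFR2 (left) and GATA6-AS TFR1 (right). Points are medians and bars run from the 10th to the 90th percentile over loci, so they show the range of loci and not an error; shared loci (red) had medians of 1.49 and 1.33, beside 1.43 in loci of MEG3 TFR2 alone (blue) and 1.35 in loci of GATA6-AS TFR1 alone (green).

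Both ratios reached 2-fold at 9798 shared loci (81.8%), 3-fold at 2467 (20.6%), 4-fold at 699 (5.84%) and 8-fold at 29 (0.242%). The same no-oligo libraries stand below both ratios of a locus, so low signal in those libraries and high signal with each oligo cannot be told apart here. The loci with the higher ratios were narrower: the median width was 750 bp where the lower of the 2 ratios was under 2-fold (2174 loci), 550 bp from 2-fold to 3-fold (7331), 500 bp from 3-fold to 4-fold (1768) and 450 bp at 4-fold or more (699).

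By position, over loci of all widths, shared loci were found more often near the ends of protein-coding genes than loci of MEG3 TFR2 alone. They were found there about as often as loci of GATA6-AS TFR1 alone, but less often among loci of like width (values below). A midpoint within 1 kb of either end of such a gene was seen at 1221 shared loci, 10.2% (interval 9.67 to 10.8), against 3.58% (3.42 to 3.75) for MEG3 TFR2 alone and 10.6% (10.4 to 10.9) for GATA6-AS TFR1 alone. The share for MEG3 TFR1 with GATA6-AS TFR1 was 12.6%, for all 3 oligos 12%, for both MEG3 oligos 4.71% and for all merged loci 7.25%. The 4 classes that include GATA6-AS TFR1 thus lay between 10.2% and 12.6%, above each class made of MEG3 oligos.

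Shared loci lay inside protein-coding genes, away from the ends, in 6604 cases, 55.2% (54.3 to 56.1), against 49.0% for MEG3 TFR2 alone and 51.8% for GATA6-AS TFR1 alone. Between genes the shares were 25.6% (24.8 to 26.4) for shared loci, 34.8% for MEG3 TFR2 alone and 28.0% for GATA6-AS TFR1 alone. Other classes with GATA6-AS TFR1 had like values, with 53.3% inside and 25.6% between genes for MEG3 TFR1 with GATA6-AS TFR1, and 56.3% and 23.4% for all 3 oligos. Autosome by autosome, the share near gene ends was above that of MEG3 TFR2 alone on 22 of 22 and above that of GATA6-AS TFR1 alone on 6, and the share between genes was below that of MEG3 TFR2 alone on 22 and below that of GATA6-AS TFR1 alone on 18.

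**Figure D2:**
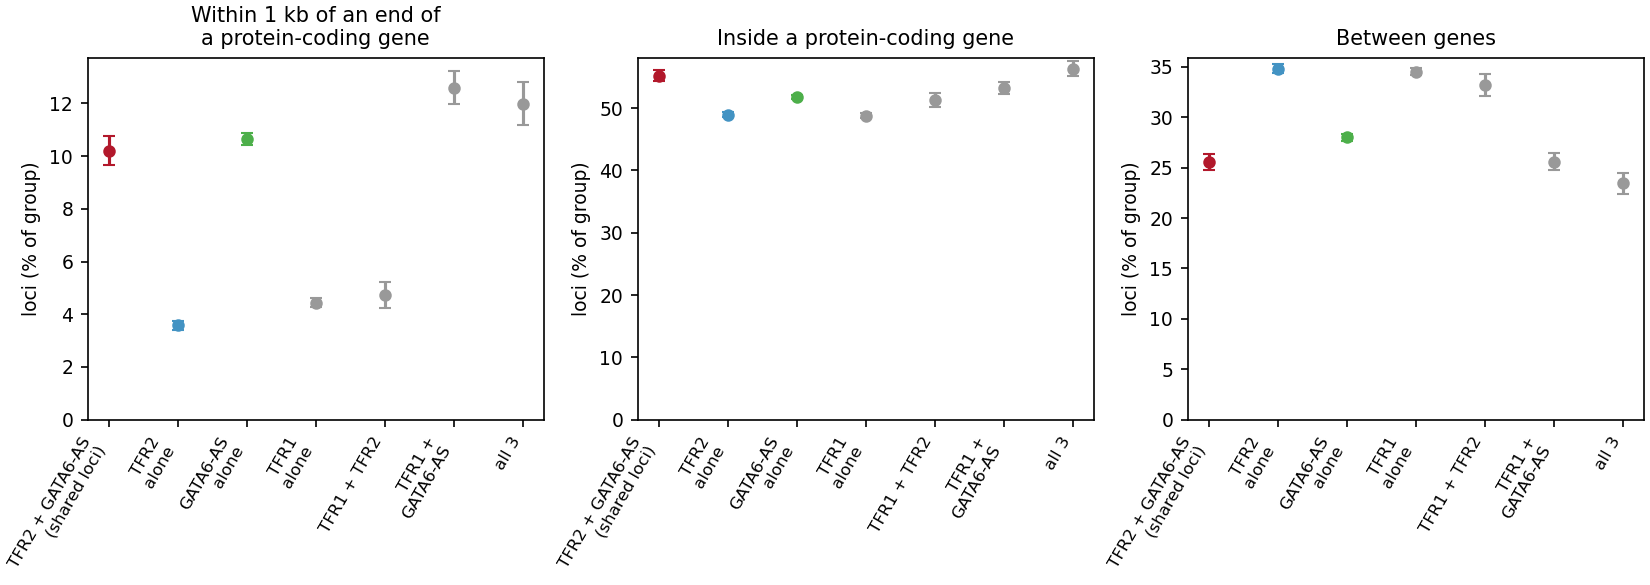
Share of loci of each class (percent) with the midpoint within 1 kb of an end of a protein-coding gene (left), inside a protein-coding gene (middle) or between genes (right). Points are shares with 95% Wilson intervals for counting error; shared loci (red) were at 10.2%, 55.2% and 25.6%, beside 3.58%, 49.0% and 34.8% for MEG3 TFR2 alone (blue).

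Width moved with this share, so it is given within bands of width. Among loci of 150 to 350 bp, 6.26% of 1918 shared loci lay near a gene end, against 3.39% for MEG3 TFR2 alone and 8.85% for GATA6-AS TFR1 alone. From 550 to 700 bp the shares were 10.1% of 3230 shared loci, 4.59% for MEG3 TFR2 alone and 13.3% for GATA6-AS TFR1 alone. From 750 to 1000 bp they were 12.6%, 4.97% and 15.5%. In each of these bands the shared loci lay between the classes of a single oligo. By the lower of the 2 ratios, the share near gene ends was 8.79% under 2-fold, 10.6% from 2-fold to 3-fold, 10.6% from 3-fold to 4-fold and 9.59% at 4-fold or more. These bands of ratio differ in width as well, with medians of 750, 550, 500 and 450 bp. Ratio and width were not separated here.

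Around transcription starts the shared loci lay mostly downstream. The table of promoters lists a start for 15812 of 19974 protein-coding genes, and 11556 shared loci lie on chromosomes with listed starts. Of these, 622 (5.38%, 4.99 to 5.81) had the midpoint within 1 kb of a listed start, against 1.63% for MEG3 TFR2 alone and 7.31% for GATA6-AS TFR1 alone. They were more often downstream of the start (384) than upstream (238), while for MEG3 TFR2 alone the counts were 360 downstream and 374 upstream, and for GATA6-AS TFR1 alone 3010 and 2278.

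Per 250 bp, the share of shared loci was highest from 500 to 750 bp downstream of the start (0.926%), beside 0.917% from 250 to 500 bp downstream and 0.537% in the last 250 bp before the start. GATA6-AS TFR1 alone was highest from 250 to 500 bp downstream (1.196%) and loci of MEG3 TFR2 alone were at 0.164% from 0 to 250 bp downstream. Over longer distances, 30.1% of shared loci lay within 10 kb of a listed start, against 16.3% for MEG3 TFR2 alone and 27.7% for GATA6-AS TFR1 alone.

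**Figure D3:**
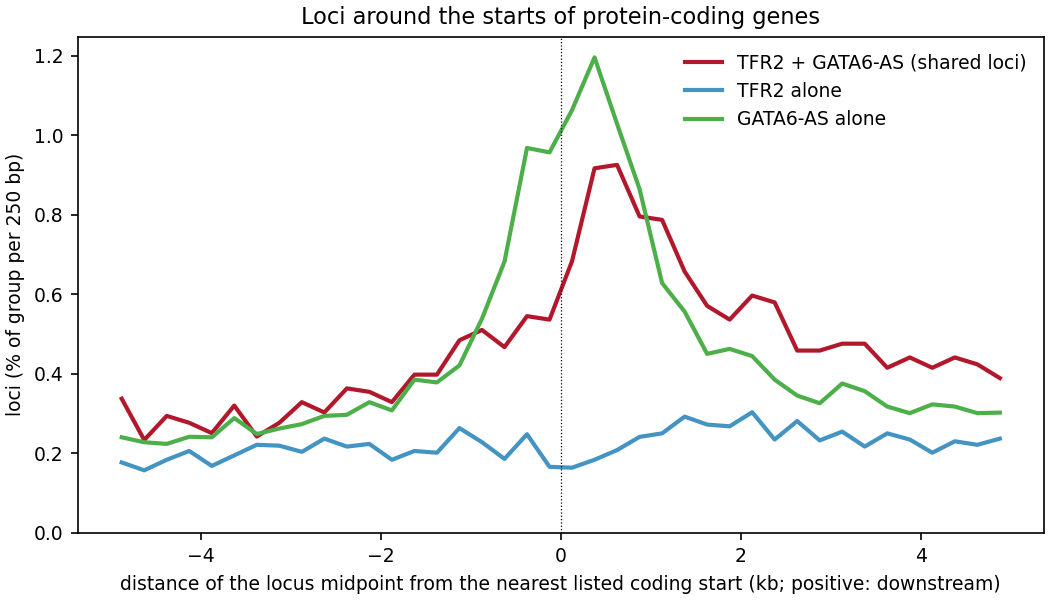
Share of each class of loci (percent per 250 bp) by the distance of the midpoint from the nearest listed start of a protein-coding gene (kb, positive downstream), for shared loci (red), MEG3 TFR2 alone (blue) and GATA6-AS TFR1 alone (green). The red line peaks at 0.926% between 500 and 750 bp downstream, the green line at 1.196% between 250 and 500 bp downstream, and the blue line shows no peak at the start.

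A gene also has a far end, where transcription stops. Among the 15812 genes with a listed start, 1315 had a shared locus within 1 kb of either end: 779 (59.2%) at the far end, 632 (48.1%) at the start and 96 at both. For MEG3 TFR2 alone the shares were 63.7% at the far end and 42.2% at the start of 1561 genes, and for GATA6-AS TFR1 alone 43.6% at the far end and 74.3% at the start of 5848 genes. In this balance the shared loci stood nearer to MEG3 TFR2 alone, while their share near gene ends stood nearer to GATA6-AS TFR1 alone.

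Chromosomes 19, 17 and 22, which are known to be rich in genes, held the largest shares of shared loci. Of all merged captured loci, 8.29% were shared on chromosome 19 (1068 loci), 7.75% on chromosome 17 (1015) and 7.44% on chromosome 22 (510), against 3.11% on chromosome 13 (135) and 3.20% on chromosome 18 (125). On chromosome 19, 29.2% of all loci with a MEG3 TFR2 region were shared, and on chromosome 18 8.77%. Of all loci with a GATA6-AS TFR1 region the shares were 13.0% on chromosome 19 and 10.0% on chromosome 18. Captured regions were denser around shared loci than around loci of either oligo alone, in the 50 kb to either side of the midpoint and with the locus's own regions counted. The median there was 15 GATA6-AS TFR1 regions, against 4 around loci of MEG3 TFR2 alone and 10 around loci of GATA6-AS TFR1 alone, and it was 9 MEG3 TFR1 regions, against 4 and 7. It was higher still around the other classes with GATA6-AS TFR1: 16 GATA6-AS TFR1 and 11 MEG3 TFR1 regions for MEG3 TFR1 with GATA6-AS TFR1, and 19 and 13 for all 3 oligos. The density of regions and the position near genes were not separated from each other here. Shared loci also had company of their own kind, with another shared locus within 10 kb of 4449 (37.2%).

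**Figure D4:**
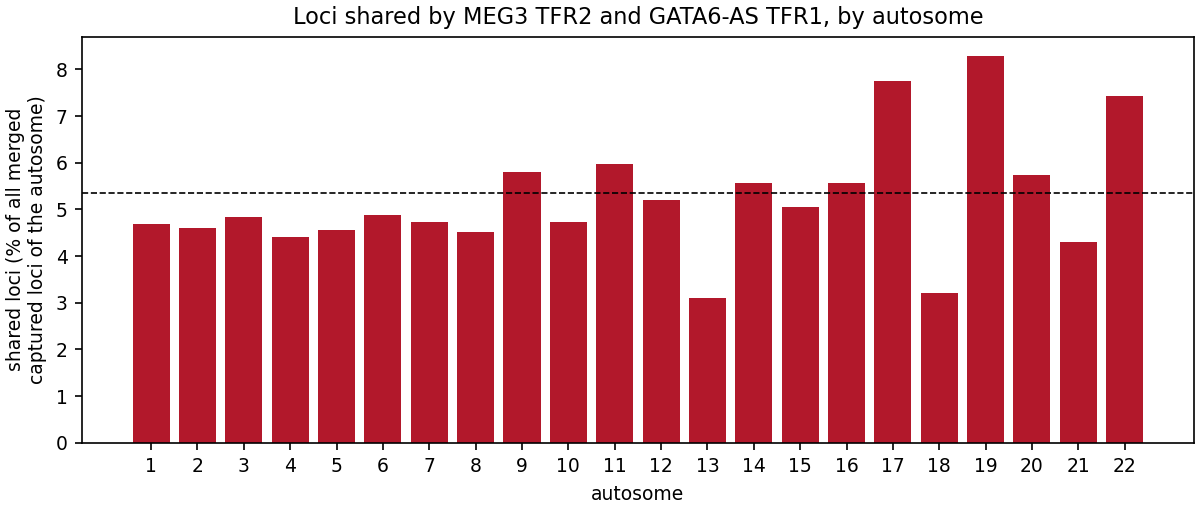
Shared loci as a percentage of all merged captured loci on each autosome (bars), with the value over the genome, 5.36%, as the dashed line. The bars of chromosomes 19, 17 and 22 are the highest at 8.29%, 7.75% and 7.44%, and those of chromosomes 13 and 18 the lowest at 3.11% and 3.20%.

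Of 19974 protein-coding genes, 1795 (8.99%) had a shared locus within 1 kb of either end. Loci of MEG3 TFR2 alone were found there for 10.3% of genes, loci of GATA6-AS TFR1 alone for 38.3%, loci of MEG3 TFR1 with GATA6-AS TFR1 for 9.17%, loci of all 3 oligos for 6.09% and loci of both MEG3 oligos for 2.4%. The genes with the highest lower ratio of the 2 oligos were led by MGAT5B, an N-acetylglucosaminyltransferase of brain, with a locus at chr17:76869251-76869650 just inside the gene at 17.6-fold with MEG3 TFR2 and 16.1-fold with GATA6-AS TFR1. SHISAL2A, which encodes a shisa-like membrane protein, had its locus near the start at chr1:52633751-52634250, at 12.5-fold with MEG3 TFR2 and 9.74-fold with GATA6-AS TFR1. MEX3A, an RNA-binding protein, had it near the far end at chr1:156072351-156072850, at 8.20-fold and 10.5-fold.

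Near the start of HOMER3 the values were again high. HOMER3, a scaffold protein of synapses, had the locus at chr19:18939451-18940950 whose promoter is printed above. A locus at chr20:347351-347950 lies near the starts of both NRSN2, which encodes the neuronal membrane protein neurensin, and LOC101929937, at 8-fold with MEG3 TFR2 and 9.03-fold with GATA6-AS TFR1. FBXO41, a neuronal F-box protein, had a locus at chr2:73283601-73284100 near its start, at 7.78-fold and 8.28-fold, with a MEG3 TFR1 region 50 bp away. SYT13, of the synaptotagmin family, had one at chr11:45285451-45285900, at 13.3-fold and 7.11-fold.

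The others were PRR12, FAM163B, TPSAB1 and SUSD2. PRR12, a proline-rich nuclear protein, had its locus near the far end at chr19:49626051-49626400, at 7.95-fold with MEG3 TFR2 and 8.77-fold with GATA6-AS TFR1. FAM163B also had it near the far end, at chr9:133577251-133577700, at 8.45-fold and 6.88-fold. TPSAB1, the tryptase of mast cells, had it just outside the gene at chr16:1239701-1240000, at 12.6-fold and 7.56-fold, and SUSD2, a sushi domain protein of the cell surface, at chr22:24187901-24188350, at 6.87-fold and 6.64-fold.

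Of the 8 loci with the highest lower ratio anywhere, MGAT5B was the only 1 near the end of a protein-coding gene. The locus with the highest lower ratio of all was chr22:48857401-48857850, between genes, at 29.7-fold with MEG3 TFR2 and 18.9-fold with GATA6-AS TFR1. Others between genes were chr19:5436351-5436700, at 22.3-fold and 12.8-fold, and chr1:153490851-153491300, at 11.9-fold and 11.7-fold. The loci in noncoding genes were chr8:37420051-37420450 in LINC01605, at 13.3-fold and 21.8-fold, and chr12:131689151-131689650 in LOC105370087, at 24.3-fold and 12.5-fold, which touches a MEG3 TFR1 region. Inside protein-coding genes stood ANKRD44, a protein with ankyrin repeats, at chr2:197275651-197275850 with 19.3-fold and 11.6-fold, and OPCML, a cell adhesion protein of neurons, at chr11:133283101-133283450 with 12.6-fold and 10.7-fold. The ratios are quotients of small whole numbers of unknown meaning: the reduced denominators at the top locus were 3 with MEG3 TFR2 and 8 with GATA6-AS TFR1, and the error of a ratio is not known. With MEG3 TFR2 the reduced denominator was 1 at the loci of HOMER3 and NRSN2 given above.

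Long genes carried several shared loci, and 4625 protein-coding genes (23.2%) had at least 1 over the gene. RBFOX3, the splicing factor known as the neuronal marker NeuN, had the most with 20 over 576 kb, 9.39% of the 213 captured loci over the gene. CDH23, a cadherin of hair cell tip links, had 19 over 419 kb (11.2% of 170), and IQSEC1, an activator of ARF GTPases, 18 over 386 kb (12.5% of 144). GSE1 had 17 (8.17% of 208) and SORCS2, a sorting receptor of neurons, 16 (9.36% of 171). CCDC33, with 15 over only 133 kb, had 11.2 per 100 kb and the largest share of these 6 genes, 20.0% of 75 captured loci, against 5.36% over the genome. These 6 genes were picked for their number of shared loci, so shares above the genome value are partly fixed by the choice.

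The widest shared loci were held together by several regions. The widest, chr12:56237201-56241550, spanned 4350 bp over the zinc transporter gene SLC39A5 and ANKRD52 with 2 regions of each oligo, at 2.54-fold with MEG3 TFR2 and 2.36-fold with GATA6-AS TFR1. It was followed by loci over SMTN, a smooth muscle protein (chr22:31088601-31091850, 3250 bp, 2.76-fold and 3.17-fold), NACC1, a transcriptional repressor (chr19:13137951-13141050, 3100 bp, 4.42-fold and 2.72-fold), CD151, a tetraspanin (chr11:836651-839650, 3000 bp, 2.75-fold and 3.13-fold), and TBC1D24 (chr16:2498551-2501550, 3000 bp, 1.85-fold and 2.79-fold). With MEG3 TFR2 the 5 values ran from 1.85-fold at TBC1D24 to 4.42-fold at NACC1, where the 10th and 90th percentiles of all shared loci were 2.06-fold and 4.61-fold.

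The genes that the oligos come from, and their neighbours DLK1 and GATA6, held too few captured loci to compare with the 5.36% over the genome. MEG3 had 1 shared locus, chr14:100861251-100861600, which starts 225 bp beyond the gene and stood at 3.98-fold with MEG3 TFR2 and 2.68-fold with GATA6-AS TFR1, of 14 captured loci over the gene and 1 kb to either side. DLK1, the imprinted Notch-like ligand gene of the same domain, had 1 of 9, at chr14:100730501-100731100 with 2.01-fold and 2.13-fold. GATA6-AS1 and GATA6 had none among 2 and 1 captured loci, and the nearest shared locus, chr18:22039151-22039750, was 127148 bp from GATA6-AS1.

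The gene lists below hold ligands, receptors and regulators of development, and a list of ribosomal protein genes for comparison. They are read against the 8.99% of all protein-coding genes that had a shared locus near an end. The lists were chosen with earlier results of these data known, so a share above that value is a description. A locus counts for each gene with an end within 1 kb of it, also where it lies inside a neighbouring gene.

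Ephrins and Eph receptors, the contact signals that guide axons and cell borders, had the largest share of the 11 lists, 8 of 22 genes (36.4%). Any captured region of MEG3 TFR2 stood near 10 of the 22, of GATA6-AS TFR1 near 16 and of MEG3 TFR1 near 11, where 22.2%, 46.8% and 28.2% of all protein-coding genes had one, in the same order of oligos. The ephrin gene EFNA4 had its locus near the far end at chr1:155070151-155070950, at 5.00-fold with MEG3 TFR2 and 6.35-fold with GATA6-AS TFR1. Of the receptor genes, EPHA1 (chr7:143390451-143391200) stood at 12-fold and 4.91-fold, also near the far end, and EPHB1 (chr3:134793951-134794400) at 5.43-fold and 3.91-fold near the start. The EPHA1 locus also lies at the far end of the neighbouring gene ZYX. EPHB6, EPHA5, EFNA3, EPHA10 and EFNB3 were the others. Both ratios reached 3-fold at 6 of the 8 genes, where 20.6% of all shared loci did. Of these genes, EFNA4 and EPHA1 had a reduced denominator of 1 with MEG3 TFR2, and EFNA3 had 1 with GATA6-AS TFR1.

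HOX genes, which set position along the body axis, had a shared locus at 8 of 39 (20.5%). The highest were HOXC11 (chr12:53971801-53972300) at 3.62-fold with MEG3 TFR2 and 3.69-fold with GATA6-AS TFR1, HOXC10 (chr12:53989751-53990100) at 3.39-fold and 3.21-fold, and HOXC5 (chr12:54035701-54036950) at 3.62-fold and 2.93-fold, and with HOXC12 4 of the 8 lay in the HOXC cluster. Any captured GATA6-AS TFR1 region lay near 36 of the 39 genes, any MEG3 TFR1 region near 28 and any MEG3 TFR2 region near 19. Loci of all 3 oligos lay near 14 of the 39 genes, more than the 8 with a shared locus.

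Among signalling ligands and their receptors, WNT ligands and frizzled receptors had 5 of 29 genes (17.2%), led by the receptor FZD7 (chr2:202033001-202033600) at 3.59-fold with MEG3 TFR2 and 3.95-fold with GATA6-AS TFR1. The ligands WNT10A (chr2:218894501-218895300) and WNT8A (chr5:138077851-138078650) stood at 3.06-fold and 2.54-fold and at 2.51-fold and 2.23-fold. The Hedgehog pathway had 3 of 18 (16.7%), its transcription factor GLI1 (chr12:57470551-57471850) at 3.29-fold and 3.46-fold, and its regulators KIF7 (chr15:89663151-89663450) at 3.63-fold and 2.61-fold and SUFU (chr10:102631851-102632900) at 2.5-fold and 1.57-fold. For SUFU the reduced denominator with MEG3 TFR2 was 2. FGF ligands and receptors had 3 of 27 (11.1%), none of them a receptor, with FGF10 (chr5:44388051-44388500) at 4.65-fold and 4.51-fold near its start, FGF11 (chr17:7445401-7446250) at 2.88-fold and 7.64-fold, and FGF4 (chr11:69775601-69776300), a ligand of pluripotent cells, at 2.29-fold and 1.69-fold. The FGF11 locus lies beyond the far end of FGF11 and inside the neighbouring gene CHRNB1, near its start. The TGF-beta and BMP pathway, the one MEG3 is known for, had 5 of 46 (10.9%). The list does not hold the whole family: the ligand genes BMP3 and INHBC, named after their values were seen, are not in it and also had a shared locus near an end. The 5 were the BMP antagonist NOG (chr17:56595901-56596700) at 3.65-fold and 4.61-fold, the receptor ACVRL1 (chr12:51906701-51907150) at 2.82-fold and 2.51-fold, the signal transducer SMAD2 (chr18:47809301-47809850) at 3.28-fold and 2.49-fold, the ligand TGFB3 and the binding protein LTBP3.

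Of genes with roles in neurons, semaphorins and plexins had 5 of 31 (16.1%), with the ligand SEMA4A (chr1:156147001-156147850) at 3.64-fold with MEG3 TFR2 and 3.88-fold with GATA6-AS TFR1 and the receptor PLXNB1 (chr3:48430401-48431050) at 4.65-fold and 3.60-fold, and the ligand SEMA7A (chr15:74408301-74409850) at 2.67-fold and 2.74-fold. Glutamate receptors had 4 of 26 (15.4%), where GRIN2A (chr16:10182151-10182800), an NMDA receptor subunit, stood at 5.85-fold and 9.50-fold near its start. The reduced denominator of GRIN2A with GATA6-AS TFR1 was 2. The other subunits GRIN1 (chr9:137140001-137140550) and GRIN3B (chr19:1001001-1002100) stood at 2.81-fold and 2.19-fold and at 2.09-fold and 3.18-fold.

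Polycomb components had 6 of 33 (18.2%). EPOP (chr17:38670951-38671750), a partner of Polycomb repressive complex 2, stood at 15.1-fold with MEG3 TFR2 and 6.06-fold with GATA6-AS TFR1, EED (chr11:86245601-86246250), a core subunit, at 3.50-fold and 2.27-fold, and EZH1 (chr17:42699251-42699750), a catalytic subunit, at 2.08-fold and 2.09-fold. Pluripotency genes had 4 of 25 (16.0%): MYCN (chr2:15941401-15942250) at 4-fold and 5.22-fold, ZFP42 (chr4:187995851-187996200) at 3.00-fold and 2.58-fold, and the telomerase gene TERT (chr5:1252501-1253450) at 2.44-fold and 3.8-fold near its far end, with SOX2 as the other gene. The reduced denominators of MYCN and ZFP42 with MEG3 TFR2 were 1, and that of EED was 2. The ribosomal protein genes had 7 of 69 (10.1%), with RPL12 (chr9:127451901-127452600) at 3.91-fold and 3.32-fold, RPL18 (chr19:48619501-48620250) at 3.39-fold and 3.24-fold, and RPS21 (chr20:62387501-62388200) at 3.27-fold and 6.17-fold. The loci of RPL12 and RPL18 lie outside these genes, near the starts of the neighbouring genes LRSAM1 and SPHK2. Shares over lists of 18 to 69 genes can move by several percentage points with a single gene, and nothing particular to a list is read from them.

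Promoter windows under the shared loci held a GGA repeat more often than those under loci of either oligo alone. A promoter here is the window printed above, and 462 windows of 418 genes, of 34961 in the table, overlapped 396 shared loci. Each motif was searched in capitals as given and as its reverse complement, at any overlap with itself. GGAGGAGG was in 103 of the 462 (22.3%, 18.7 to 26.3), against 10.8% of 437 windows under loci of MEG3 TFR2 alone and 15.4% of 3389 under loci of GATA6-AS TFR1 alone. Of all windows 10.9% held it and of those under no captured locus 9.58%. Loci of all 3 oligos stood close by at 22.5%, and loci of MEG3 TFR1 alone at 15.7%. GGAGGAGG was in 19.4% of 155 windows under both MEG3 oligos and in 18.7% of 814 under MEG3 TFR1 with GATA6-AS TFR1. Each class of several oligos thus stood above each class of a single oligo, so the raised share is not particular to the shared loci.

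GGGAGGGA, which can overlap GGAGGAGG by a few letters, was in 17.1% of windows under shared loci, against 9.15% under MEG3 TFR2 alone, 10.2% under GATA6-AS TFR1 alone and 8.01% of all, with 17.2% under MEG3 TFR1 with GATA6-AS TFR1 and 21.7% under all 3 oligos. A purine run of 15 or more bases was in 28.1% (24.2 to 32.4) and in 19.9% of all. It was in 21.5% (17.9 to 25.6) under MEG3 TFR2 alone and 24.0% (22.6 to 25.5) under GATA6-AS TFR1 alone. The interval of the shared loci overlaps both of these. Classes with MEG3 TFR1 were higher, with 34.5% for MEG3 TFR1 alone and 35.7% for all 3 oligos. GAGAGAGA was no more frequent than over all windows: 14 windows under shared loci held it (3.03%, 1.81 to 5.02), against 5.49% under MEG3 TFR2 alone, 2.80% under GATA6-AS TFR1 alone, 9.04% under MEG3 TFR1 alone and 3.42% of all. GAAGAAGA was in 5 windows under shared loci (1.08%), against 1.84% of all.

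**Figure D5:**
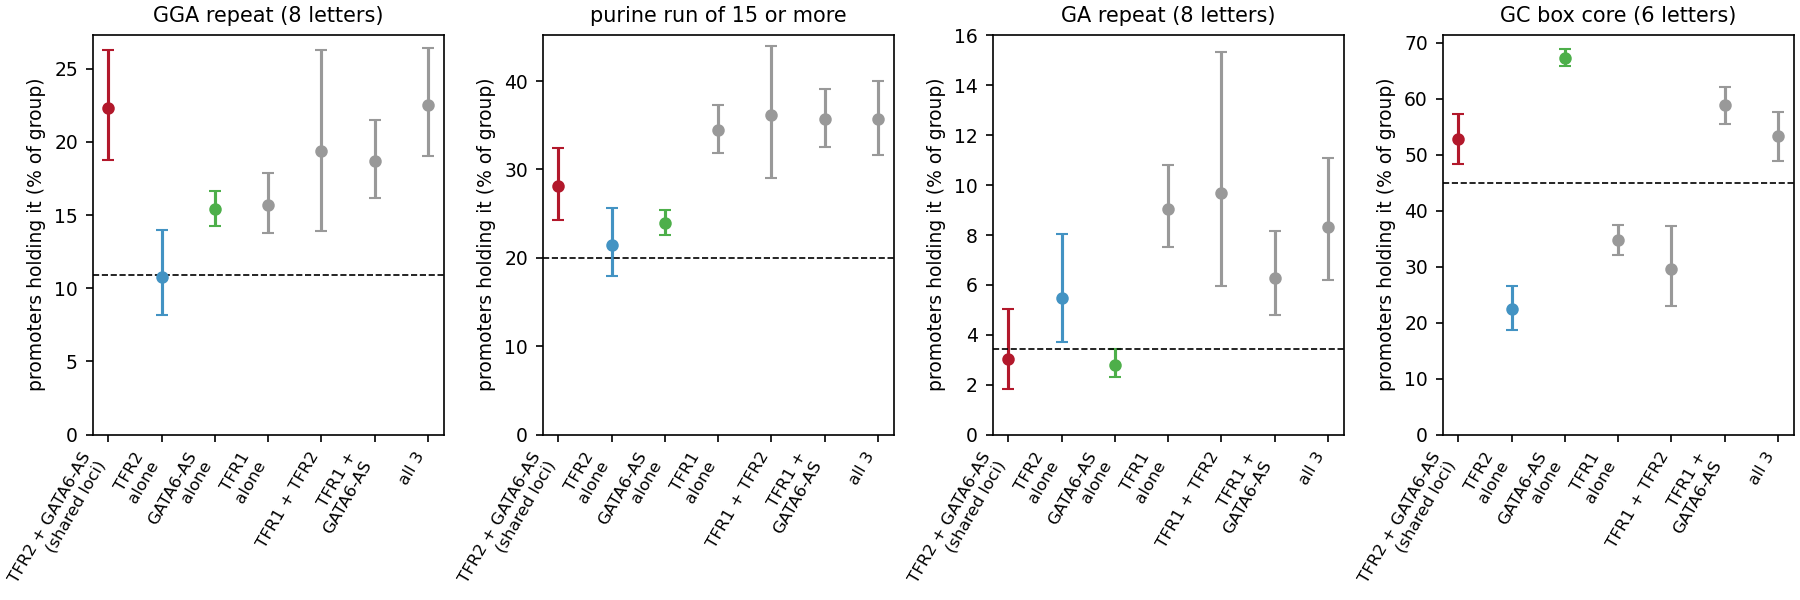
Share of promoter windows (percent) that hold each sequence feature, by the class of captured locus over the window: the GGA repeat GGAGGAGG, a purine run of 15 or more bases, the GA repeat GAGAGAGA and the GC box core GGGCGG. Points are shares with 95% Wilson intervals for counting error and dashed lines the share of all 34961 windows; windows under shared loci (red) were at 22.3%, 28.1%, 3.03% and 52.8%.

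Base composition differed between the classes as well. Windows under shared loci had a median GC content of 62.0% and a median of 11 CpG sites, against 53.7% and 5 under MEG3 TFR2 alone, 63.7% and 21 under GATA6-AS TFR1 alone and 58.7% and 14 over all windows. GGGCGG, the core of the GC box that Sp1 binds, was in 52.8% under shared loci, against 22.4% under MEG3 TFR2 alone, 67.4% under GATA6-AS TFR1 alone and 45% of all. Within a GC content of 55% to 65%, GGAGGAGG was in 21.3% of 253 windows under shared loci, against 16.0% under MEG3 TFR2 alone, 14.2% under GATA6-AS TFR1 alone and 12.6% of all. From 65% to 75% the shares were 29.8% of 141, 20.6% of 34, 17.9% and 16.7%. Loci of all 3 oligos were at 25.3% in the lower of these bands and 22% in the upper. From 45% to 55% the order was another: 9.43% of 53 windows under shared loci held the motif, against 5.88% under MEG3 TFR2 alone, 11.3% under GATA6-AS TFR1 alone, 13.8% under all 3 oligos and 7.21% of all. Purine runs of 15 or more bases had no steady order over these bands. From 55% to 65% they were in 24.5% under shared loci, 23.1% under MEG3 TFR2 alone and 25.0% under GATA6-AS TFR1 alone. In the same order of classes, the shares were 31.9%, 32.4% and 22.3% from 65% to 75%, and 34.0%, 20.3% and 27.8% from 45% to 55%.

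A window that only touches a locus need not hold captured DNA, so the 188 windows wholly inside a shared locus were also counted. GGAGGAGG was in 25.5% of them (19.8 to 32.2), against 10.6% of 47 inside MEG3 TFR2 alone (4.63 to 22.6) and 18.0% of 715 inside GATA6-AS TFR1 alone (15.4 to 21.0). The interval of the shared loci overlaps both others. A purine run of 15 or more bases was in 27.7% of the 188, against 17.0% of the 47 and 26.6% of the 715. GAGAGAGA was in 0 of the 188, for which the upper bound of the interval is 2.00%, against 1 of the 47 and 25 of the 715. A match in these letters is a description of the window and does not mark a triplex site.

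Hairpins of microRNAs, the folded precursors of these small RNAs, were looked up as well, and 34 of the 1558 in the table lay under a shared locus, 4.33 per Mb of covered DNA. The values were 1.06 per Mb under MEG3 TFR2 alone, 3.25 under GATA6-AS TFR1 alone, 3.48 under MEG3 TFR1 with GATA6-AS TFR1 and 3.71 under all 3 oligos. They were 0.935 under MEG3 TFR1 alone and 0.887 under both MEG3 oligos. Summed over all classes there were 235 hairpins, of which shared loci held 14.5%, with 7.81% of the covered DNA. These counts are small and carry no interval, and MIR199B and MIR3154, and MIR4725 and MIR365B, each lie under the same locus. Named after their values were seen, MIR3138 lay under chr4:10078551-10079000 at 7.29-fold with MEG3 TFR2 and 4.55-fold with GATA6-AS TFR1, and MIR184, a microRNA of the eye lens and cornea, under chr15:79209651-79210050 at 3.81-fold and 3.67-fold. MIR665, which lies in the DLK1-DIO3 domain downstream of MEG3, was under chr14:100874901-100875750 at 12.1-fold with MEG3 TFR2 and 3.62-fold with GATA6-AS TFR1.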

How the data were processed

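The authors deposited 6 lists of regions on hg38, a captured and a control list for each of 3 oligos against no oligo, per the submitters' processing notes, which name FastQC and BWA 0.7.15-r1140. How regions were called and how libraries were scaled is not given in the sources used here. Each region has 1 log2 ratio from the authors, taken as log2 since 2 raised to it is a ratio of whole numbers for nearly every region. The deposited lists give no depth, p-value or value per library.

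The 3 captured lists were merged where regions overlap by 1 bp or more, and a locus took the highest ratio of an oligo's regions. Fold thresholds allow for the rounding of the deposited values (1e-09 on the log2 scale). Merging was tested on simulated regions. Genes, promoters and microRNA hairpins came from RefSeq tables (GRCh38.p14), with 19974 protein-coding genes; promoters of chromosome 8 were not used here. No test was made, since no value per library exists. Shares carry 95% Wilson intervals. Genes named were the 12 with a shared locus within 1 kb of an end and the highest lower ratio, the 8 highest loci anywhere, the 6 genes with the most loci, up to 3 per gene list, the oligos' source genes, the 5 widest loci and the 6 promoters with the longest purine runs at 3-fold or more. Members and lists were chosen with earlier results of these data known. Python 3.11.15, numpy 2.4.6, pandas 2.3.3 and scipy 1.17.1 were used.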

Additional observations from a re-analysis of the deposited data

How the results depend on the processing

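Depth, the agreement of libraries and the effect of leaving a library out could not be computed from lists with 1 value per region. No paired analysis was possible because the lists give no value per library. Merging regions within 200 bp gave 9.64% of loci near gene ends and a GATA6-AS TFR1 median log2 ratio of 1.35. Keeping regions at a log2 ratio of 1.5 or more left 3595 shared loci and 571 genes, with a median of 1.96 with MEG3 TFR2 and 1.79 with GATA6-AS TFR1, and keeping the 50% largest ratios of each list left 5012 loci and 770 genes, with medians of 1.86 and 1.66. Without MEG3 TFR1 regions within 1 kb, 9.51% lay near gene ends and 26.7% between genes. Without chromosome 19 these were 9.51% and 26.7%, with 54.3% inside protein-coding genes. Loci up to 500 bp wide numbered 5048, with 7.19% near gene ends, 51.8% inside protein-coding genes, 30.2% between genes, 480 genes and medians of 1.62 and 1.41. Gene ends of 5 kb took in 32.3% of loci and 4169 genes. A purine run of 12 or more bases was in 55% of windows and one of 20 or more in 9.31%. The other 42 values, those for regions that share 0.5 or more of the shorter among them, stayed within the interval of the main value, or within 1.5 times it for counts. The merging of touching regions (11987 loci) and the omission of chromosome 1, both chosen after seeing the data, are among these.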
